A study of Mus musculus with 6 samples.

Results

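Histone methyltransferases, demethylases and a few of the proteins that read or scaffold these marks were followed at the RNA level in mouse bone marrow hematopoietic stem cells (HSCs) after irradiation. The genes were taken by symbol from the Kmt, Kdm, Setd, Suv39h, Ehmt, Nsd and Prmt families. To these were added Dot1l, Carm1, Men1, Kansl1, Trim28, Cbx1, Cbx3 and Cbx5. The rule left out 4 family members, Kdm2b, Kdm5c, Kdm5d and Kdm6a. The rule found 52 of the 21851 genes listed. One of the 52, Nsdhl, a sterol dehydrogenase of cholesterol synthesis, matched the spelling only, which left 51 genes with a histone or protein methylation role. Nsdhl itself was at 23.8 ± 1.72 FPKM (SD, n = 3) in Ctrl and 22.1 ± 0.759 FPKM (SD, n = 3) in IR, and it was not called different.

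The study sorted HSCs from the marrow of wild-type mice by the surface phenotype Lineage-, Sca-1+, c-Kit+, CD150+, Flt3- and CD48-, and made poly(A) RNA libraries with a stranded kit. The Ctrl group holds 3 libraries from control mice and the IR group 3 libraries from irradiated mice. The labels used here state no dose, time after irradiation, strain, age or sex, nor how many mice went into a library. P-values therefore measure the spread between these libraries, which may be technical. Levels are in FPKM, a fragment count divided by transcript length and by the library's mapped fragments, so that genes can be compared with each other.

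Lysine methylation on histone tails marks the state of a gene. H3K4 methylation marks promoters and enhancers in use, H3K36 and H3K79 methylation cover transcribed gene bodies, and H3K9 methylation with its HP1 readers marks silent heterochromatin and silences endogenous retroviruses. Writers carry a SET domain or, in Dot1l, another fold, and use S-adenosylmethionine. Erasers use FAD (the LSD family) or iron and 2-oxoglutarate (the JmjC family). In blood stem cells these enzymes are best known from mixed lineage leukemia, in which KMT2A is rearranged, and from the LSD1 complexes that GFI1 and GFI1B recruit.

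The 4 promoters below belong to the members with the largest rises (Setdb1 and Cbx5) and the largest falls (Kdm4a and Kdm5b) among those called and not overlapping between groups, ranked on log2(FPKM + 1). As a ratio of mean FPKM, Setd7, which fell by 30.1%, changed more than Kdm5b, which fell by 28.4%. Each runs from 250 bases before to 50 bases after the RefSeq start on GRCm38.p6, 5′ to 3′ on the gene's strand, with CCAAT boxes (CCAAT or its reverse ATTGG) and GC boxes (GGGCGG or its reverse CCGCCC) in capitals. Setdb1 is at chr3:95357153-95357452, minus strand. Cbx5 is at chr15:103239803-103240102, minus strand, the first of 2 starts listed. Kdm4a is at chr4:118179994-118180293, minus strand, and Kdm5b is at chr1:134559928-134560227, plus strand.
Setdb1: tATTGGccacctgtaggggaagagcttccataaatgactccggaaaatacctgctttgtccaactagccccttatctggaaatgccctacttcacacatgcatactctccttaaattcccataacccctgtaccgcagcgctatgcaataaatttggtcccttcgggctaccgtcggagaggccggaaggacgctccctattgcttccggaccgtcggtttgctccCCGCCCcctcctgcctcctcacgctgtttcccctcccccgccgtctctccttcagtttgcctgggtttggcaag
Cbx5: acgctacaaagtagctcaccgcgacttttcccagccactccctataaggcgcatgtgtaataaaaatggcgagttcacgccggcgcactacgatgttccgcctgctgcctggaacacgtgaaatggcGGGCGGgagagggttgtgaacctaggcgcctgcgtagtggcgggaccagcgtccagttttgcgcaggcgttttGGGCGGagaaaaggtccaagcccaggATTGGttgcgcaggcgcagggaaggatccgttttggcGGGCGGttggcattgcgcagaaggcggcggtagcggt
Kdm4a: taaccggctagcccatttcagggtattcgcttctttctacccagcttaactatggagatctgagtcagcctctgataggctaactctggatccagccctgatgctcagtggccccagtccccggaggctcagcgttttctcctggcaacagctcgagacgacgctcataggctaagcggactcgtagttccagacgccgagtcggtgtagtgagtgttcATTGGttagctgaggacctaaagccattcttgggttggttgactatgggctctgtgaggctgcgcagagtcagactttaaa
Kdm5b: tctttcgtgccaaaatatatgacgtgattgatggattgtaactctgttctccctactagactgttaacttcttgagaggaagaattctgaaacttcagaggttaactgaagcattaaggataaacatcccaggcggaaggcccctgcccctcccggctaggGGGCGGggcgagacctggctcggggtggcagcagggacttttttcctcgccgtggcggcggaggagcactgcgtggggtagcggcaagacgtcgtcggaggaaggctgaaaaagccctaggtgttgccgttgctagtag
The Cbx5 window holds 3 GC boxes and 1 CCAAT box, and that of Setdb1 holds 1 of each. Kdm4a has a CCAAT box without a GC box, and Kdm5b a GC box without a CCAAT box. Over all 32817 RefSeq promoter windows of this length, 37.4% hold a CCAAT box and 35.6% a GC box on either strand. Both words are common in promoters. ETS (CCGGAAGT) and E2F (TTTCCCGC or TTTGGCGC) words, present in 3.89% and 1.56% of all windows, were not matched in these 4.

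The libraries were alike in scale, with 14360000 to 16280000 fragments each as estimated from the steps between low values. Of 8 sort and HSC markers 5 fell and 1 rose, and the falls include Flt3 and Cd48, which the gate selected against. Hlf fell from 6.93 FPKM in Ctrl to 5.93 FPKM, and Mecom was not called. Kit was at 94.8 to 98.5 FPKM in all 6 libraries, Ly6a (Sca-1) fell from 203 FPKM in Ctrl to 157 FPKM, Procr fell from 19.2 FPKM in Ctrl to 12.6 FPKM, and Slamf1 (CD150) rose from 3.57 to 5.06 FPKM. RNA of Flt3, 124 to 127 FPKM in Ctrl and 64.4 to 67.2 in IR, and of Cd48, 396 to 403 and 343 to 359, was present although the gate excluded both surface proteins. Cell type markers moved with the groups, where 54.7% of all tested genes were called (25.8% higher and 28.9% lower). The summed level of the lymphoid priming list was 478 to 487 FPKM in Ctrl and 195 to 199 FPKM in IR, with all 7 tested genes called lower. That of the megakaryocyte list was 151 to 154 FPKM and 183 to 199 FPKM, with 5 of 6 called higher. Itga2b was at 46.4 FPKM in Ctrl and 72.4 FPKM in IR and Pf4 at 34.7 and 62.1 FPKM, while Gp6 of the same list was at 0 in all libraries. Of 22 proliferation genes 11 rose and 5 fell, and their summed level was 2273 to 2279 FPKM in Ctrl and 2367 to 2403 in IR. In the granulocyte list 4 of 9 rose and 5 fell, summing to 5296 to 5331 and 6067 to 6227 FPKM, and in the monocyte list 7 of 8 fell. The part of these shifts in the results below was not tested, and a change in the share of a cell type cannot be told apart from a change in RNA per cell.

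Members covered a wide span of levels. Trim28, at 133 FPKM in Ctrl, and the arginine methyltransferases Prmt5, Prmt3, Prmt1 and Prmt7, at 53.2 to 82.1 FPKM, were the highest, and 14 members had a Ctrl mean of at least 20 FPKM. The large SET-domain H3K4 writers were at the other end, between 0.317 FPKM for Setd1b and 3.23 FPKM for Setd1a. The median Ctrl level of the tested members was 9.22 FPKM, against 13.3 FPKM over all tested genes.

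**Figure D1:**
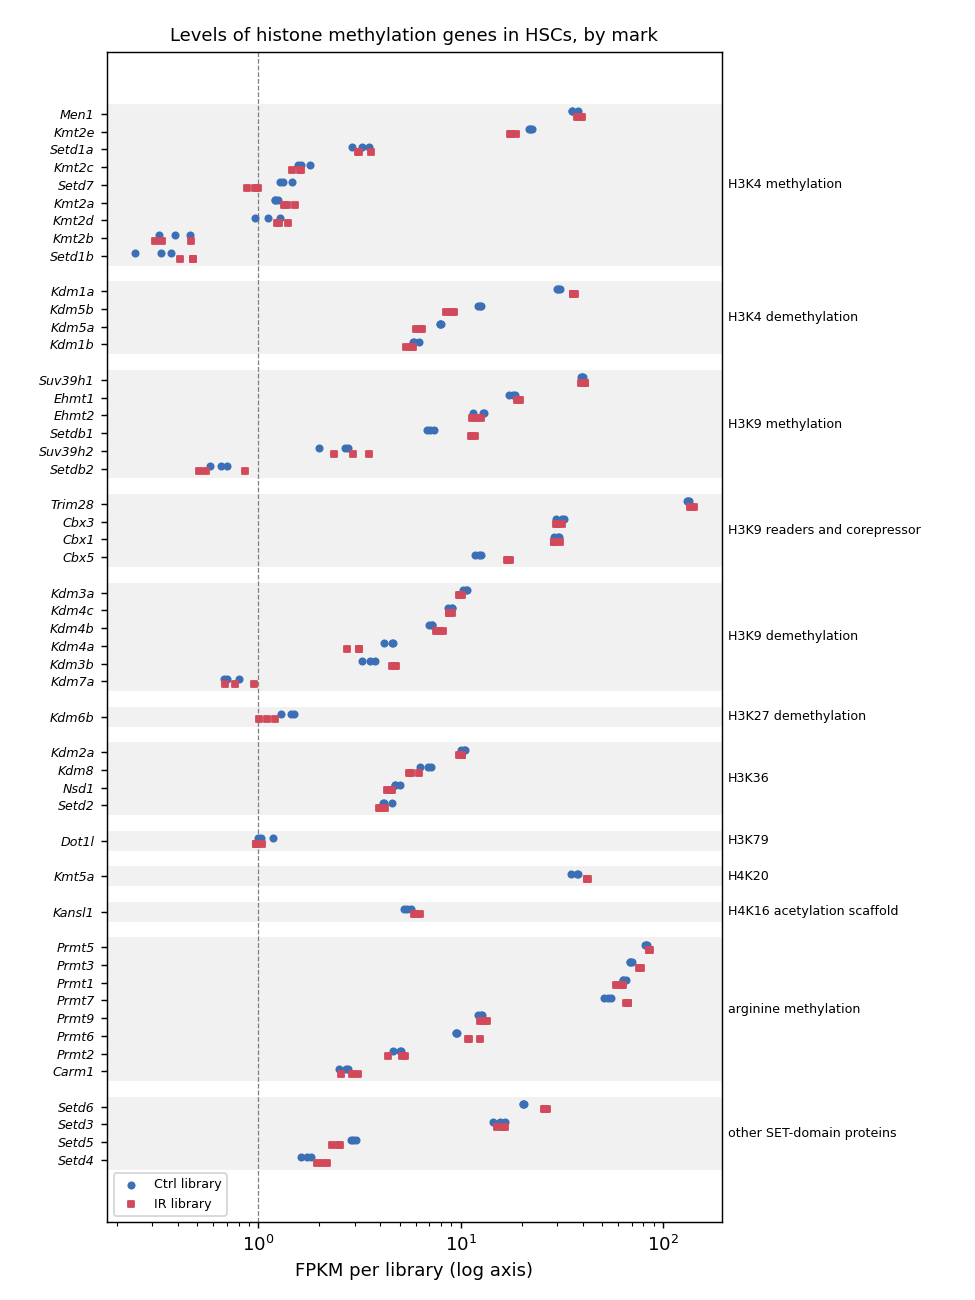
FPKM of each gene in each library on a log axis, grouped by mark, with Ctrl as circles and IR as squares and a dashed line at 1 FPKM. Trim28 and the Prmt genes sit at the right and Kmt2b and Setd1b at the left; Kdm4d and Prmt8, below the axis in some or all libraries, are not drawn.

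Irradiation was followed by small changes in both directions. Genes that reached 1 FPKM in 3 or more libraries entered a limma fit on log2(FPKM + 1), a scale that understates the change of low genes, and were called at a Benjamini-Hochberg adjusted p under 0.05 over all 10281 tested genes. Of the 51 genes, 45 could be tested: 13 rose, 8 fell and 24 were not called. That is 46.7% called, beside 54.7% of all tested genes (25.8% rose and 28.9% fell), so the share of members called was not above the background. In 27 members the IR and Ctrl libraries did not overlap, beside 61.7% of all tested genes, and in 16 of them IR was above, beside 29.1%. The median log2 fold change was 0.030 over the tested members and -0.0072 over all tested genes. The median size among called members was 0.24, against 0.23 among all called genes. Setdb1 alone rose by 1.5-fold or more on this scale and no member fell that far, while 112 genes rose and 269 fell as much in the whole table.

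Writers and erasers were also counted apart, beside 54.7% of all tested genes called, 25.8% higher and 28.9% lower. Of 26 tested writers, 7 were called higher, 2 lower and 17 neither (34.6% called), and their median log2 fold change was 0.052. These writers include Setd3, Setd4, Setd5 and Setd6, whose substrates are mainly non-histone or unsettled. Of 12 tested erasers, 3 rose, 5 fell and 4 were not called (66.7% called), with a median of -0.077. The difference between both roles was not tested.

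**Figure D2:**
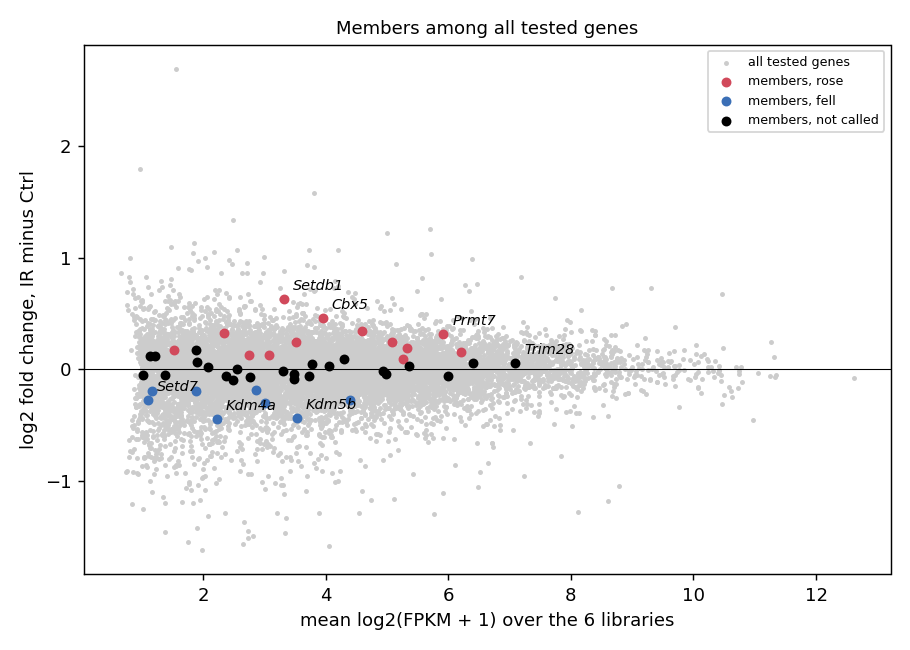
Each point is a tested gene, with its mean log2(FPKM + 1) on the x axis and its log2 fold change (IR minus Ctrl) on the y axis; members are coloured by call. The members lie within the cloud of all genes, with Setdb1 at 0.63 the highest and Kdm4a at -0.45 the lowest.

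Among genes of H3K4 methylation, the tested SET-domain writers of the MLL and SET1 complexes were low and not called, while Kmt2e and Setd7 fell. Kmt2e, an MLL relative that binds methylated H3K4 and has no established methyltransferase activity, was at 22, 21.7 and 22.6 FPKM in the Ctrl libraries and 17.7, 18.9 and 17.6 FPKM in the IR libraries. All IR libraries lay below all Ctrl libraries, a log2 fold change of -0.28 (SE 0.039; limma adjusted p = 0.000202). Setd7, which monomethylates H3K4 and many non-histone proteins, was at 1.46, 1.28 and 1.32 FPKM in Ctrl and 0.965, 0.993 and 0.880 FPKM in IR. Its groups did not overlap either (log2 fold change -0.27, SE 0.066; limma adjusted p = 0.00558), on about 94 to 160 fragments per library. Men1, which encodes menin, the scaffold that holds KMT2A and KMT2B complexes at their targets, was at 37.9, 35.5 and 35.4 FPKM in Ctrl and 39.1, 37.6 and 39.7 FPKM in IR. One IR library lay below the highest Ctrl library, and the call was marginal (log2 fold change 0.094, SE 0.036; limma adjusted p = 0.0489). It was lost without Ctrl replicate 2 or 3 or IR replicate 1 or 3, with limma adjusted p up to 0.146.

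The catalytic subunits themselves showed no call. Kmt2a, the H3K4 writer rearranged in leukemia, was at 1.25, 1.21 and 1.21 FPKM in Ctrl and 1.34, 1.52 and 1.38 in IR, without overlap, with a log2 fold change of 0.12 (95% interval -0.021 to 0.26; limma adjusted p = 0.133). Kmt2c and Kmt2d, writers of H3K4 monomethylation at enhancers, were at 1.67 and 1.12 FPKM in Ctrl and 1.57 and 1.3 FPKM in IR. Setd1a, catalytic subunit of a SET1 complex, was at 3.23 FPKM in Ctrl and 3.30 FPKM in IR. The 95% intervals of Kmt2c, Kmt2d and Setd1a reached from -0.20 to 0.29 on the log2 scale. Kmt2b and Setd1b stayed below the filter and were not tested. Setd1b was at 0.333, 0.247 and 0.372 FPKM in Ctrl and 0.475, 0.477 and 0.413 FPKM in IR, and Kmt2b at 0.309 to 0.468 FPKM over all 6 libraries. Summed over Kmt2a to Kmt2d, Setd1a and Setd1b, the level was 7.95 ± 0.276 FPKM (SD, n = 3) in Ctrl and 8.41 ± 0.327 FPKM (SD, n = 3) in IR, with overlapping libraries. The median log2 fold change over the 7 tested H3K4 methylation genes was 0.023.

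Among the H3K4 demethylases, the JmjC enzymes Kdm5a and Kdm5b fell and the FAD-dependent Kdm1a rose. Kdm5b, which removes trimethyl and dimethyl H3K4, was at 12.2, 12.5 and 12.7 FPKM in Ctrl and 9.01, 8.5 and 9.23 FPKM in IR. The groups were well apart (log2 fold change -0.44, SE 0.044; limma adjusted p = 2.29e-05). Its paralog Kdm5a, a partner of the retinoblastoma protein, was at 8.02, 7.93 and 7.95 FPKM in Ctrl and 5.99, 6.48 and 6.34 FPKM in IR. Again no library overlapped (log2 fold change -0.30, SE 0.046; limma adjusted p = 0.000348). Together both enzymes summed to 20.2, 20.4 and 20.6 FPKM in Ctrl and 15, 15 and 15.6 FPKM in IR, so their joint level fell by 25.6%.

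Kdm1a encodes LSD1, which removes monomethyl and dimethyl H3K4 within the CoREST complex. It was at 30.8, 30.0 and 30.1 FPKM in Ctrl and 35.9, 36.6 and 35.7 FPKM in IR. The IR libraries were all above the Ctrl libraries (log2 fold change 0.24, SE 0.030; limma adjusted p = 8.56e-05). Its relative Kdm1b, or LSD2, was at 5.82, 6.24 and 5.88 FPKM in Ctrl and 5.39, 5.81 and 5.74 FPKM in IR. The Kdm1b groups just missed each other, and it was not called (log2 fold change -0.071, 95% interval -0.18 to 0.042; limma adjusted p = 0.258). Summed over the 4 H3K4 demethylases followed here, without Kdm5c and Kdm5d, FPKM stayed within 56.6 to 56.8 in Ctrl and 56.2 to 57.3 in IR.

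For H3K9 methylation, Setdb1 rose and the other 4 tested writers were not called. Setdb1 writes H3K9 trimethylation at endogenous retroviruses, to which Trim28 and KRAB zinc finger proteins bring it. It was at 7.42, 6.79 and 7.02 FPKM in Ctrl and 11.3, 11.7 and 11.4 FPKM in IR, an increase of 62.2% in the mean. No libraries overlapped, and this was the largest change of any member (log2 fold change 0.63, SE 0.046; limma adjusted p = 3.03e-06), at rank 92 among the rises of all tested genes. Setdb1 lies at chr3:95323525-95357202 on the minus strand (GRCm38) and overlaps Cers2, a ceramide synthase gene on the opposite strand. Cers2 was at 183 ± 3.53 FPKM (SD, n = 3) in Ctrl and 180 ± 3.58 FPKM (SD, n = 3) in IR and was not called (limma adjusted p = 0.524). No label says whether the counting used strand. Prmt7, Kdm1a, Kdm5a and Kmt2e, all called, overlap the opposite-strand genes Smpd3, Luzp1, Ccdc77 and Srpk2; Smpd3 was at most at 0.361 FPKM and not tested, and the others were not called.

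The other H3K9 writers changed little or varied between replicates. Ehmt1, or GLP, which with Ehmt2 (G9a) writes H3K9 monomethylation and dimethylation in euchromatin, was at 18.2, 18.6 and 17.3 FPKM in Ctrl and 18.9, 19.7 and 19.3 FPKM in IR. Its groups did not overlap, and it lay just outside the threshold (log2 fold change 0.097, SE 0.039; limma adjusted p = 0.0556); without Ctrl replicate 2 it was called (limma adjusted p = 0.0476). Suv39h2, a writer of pericentric H3K9 trimethylation, ranged from 2.01 to 2.77 FPKM in Ctrl and from 2.38 to 3.54 FPKM in IR. These overlapping ranges gave a log2 fold change of 0.18 with a 95% interval of -0.076 to 0.43. Suv39h1, at 39.7 and 40.6 FPKM in Ctrl and IR, was the most abundant H3K9 writer, and Ehmt2 was at 12.5 and 12 FPKM. Setdb2, at 0.512 to 0.860 FPKM over all 6 libraries, was not tested. Summed over the writers, FPKM was 80.4 ± 0.960 (SD, n = 3) in Ctrl and 86.9 ± 0.866 (SD, n = 3) in IR, and the Setdb1 share of that sum was 8.80% ± 0.416 in Ctrl and 13.2% ± 0.205 in IR.

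Of the HP1 proteins, which bind methylated H3K9, only Cbx5 was called. Cbx5 (HP1 alpha) was at 11.7, 12.3 and 12.5 FPKM in Ctrl and 16.9, 17.1 and 17.6 FPKM in IR. All IR libraries were above all Ctrl libraries (log2 fold change 0.46, SE 0.040; limma adjusted p = 9e-06). Cbx1 (HP1 beta) was at 29.9 and 29.6 FPKM, and Cbx3 (HP1 gamma) at 31.6, 32.5 and 29.7 FPKM in Ctrl and 31.6, 29.7 and 29.8 FPKM in IR. Both overlapped between groups, with 95% intervals from -0.10 to 0.074 for Cbx1 and -0.13 to 0.052 for Cbx3. The Cbx5 share of summed HP1 FPKM was 16.6% ± 0.583 in Ctrl and 22.3% ± 0.651 in IR (SD, n = 3). Trim28, or KAP1, the corepressor of KRAB zinc finger proteins, was at 131, 134 and 132 FPKM in Ctrl and 136, 138 and 141 FPKM in IR. It did not overlap but missed the threshold (log2 fold change 0.060, SE 0.024; limma adjusted p = 0.0573), and without IR replicate 1 it was called (limma adjusted p = 0.0451). Zbtb45, on the opposite strand and overlapping Trim28, rose at a far lower level (4.47 and 5.78 FPKM).

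The H3K9 demethylases went in both directions. Kdm4a, a JmjC enzyme that removes trimethyl and dimethyl marks from H3K9 and H3K36, was at 4.57, 4.66 and 4.17 FPKM in Ctrl and 3.14, 2.76 and 3.15 FPKM in IR. The groups were separate, and it was the largest fall of any member (log2 fold change -0.45, SE 0.062; limma adjusted p = 0.000202). Kdm3b, a demethylase of monomethyl and dimethyl H3K9, was at 3.77, 3.28 and 3.59 FPKM in Ctrl and 4.81, 4.57 and 4.74 FPKM in IR. It was higher in every IR library (log2 fold change 0.33, SE 0.057; limma adjusted p = 0.000804). Kdm4b, a paralog of Kdm4a with the same substrates, was at 7.22, 7.19 and 6.95 FPKM in Ctrl and 7.59, 8.18 and 7.82 FPKM in IR. It also did not overlap (log2 fold change 0.13, SE 0.046; limma adjusted p = 0.0398), but the call was lost without any single library other than IR replicate 1, with limma adjusted p up to 0.126.

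Kdm3a, which acts on the same marks as Kdm3b, was at 10.8, 10.7 and 10.2 FPKM in Ctrl and 9.89, 10.1 and 9.77 FPKM in IR. It was lower in every IR library and was not called (log2 fold change -0.083, 95% interval -0.18 to 0.0089; limma adjusted p = 0.113). Kdm4c, the third paralog tested, was at 8.93 and 8.84 FPKM, with overlapping groups. The sum of Kdm4a, Kdm4b and Kdm4c was 20.5 ± 0.394 FPKM (SD, n = 3) in Ctrl and 19.7 ± 0.0435 FPKM (SD, n = 3) in IR. Kdm7a, at 0.682 to 0.955 FPKM, was below the filter. Kdm4d was listed at 0, 0.02 and 0 FPKM in Ctrl and at 0.209, 0.134 and 0.184 FPKM in IR, at most about 9 fragments in a library, and was not tested.

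**Figure D3:**
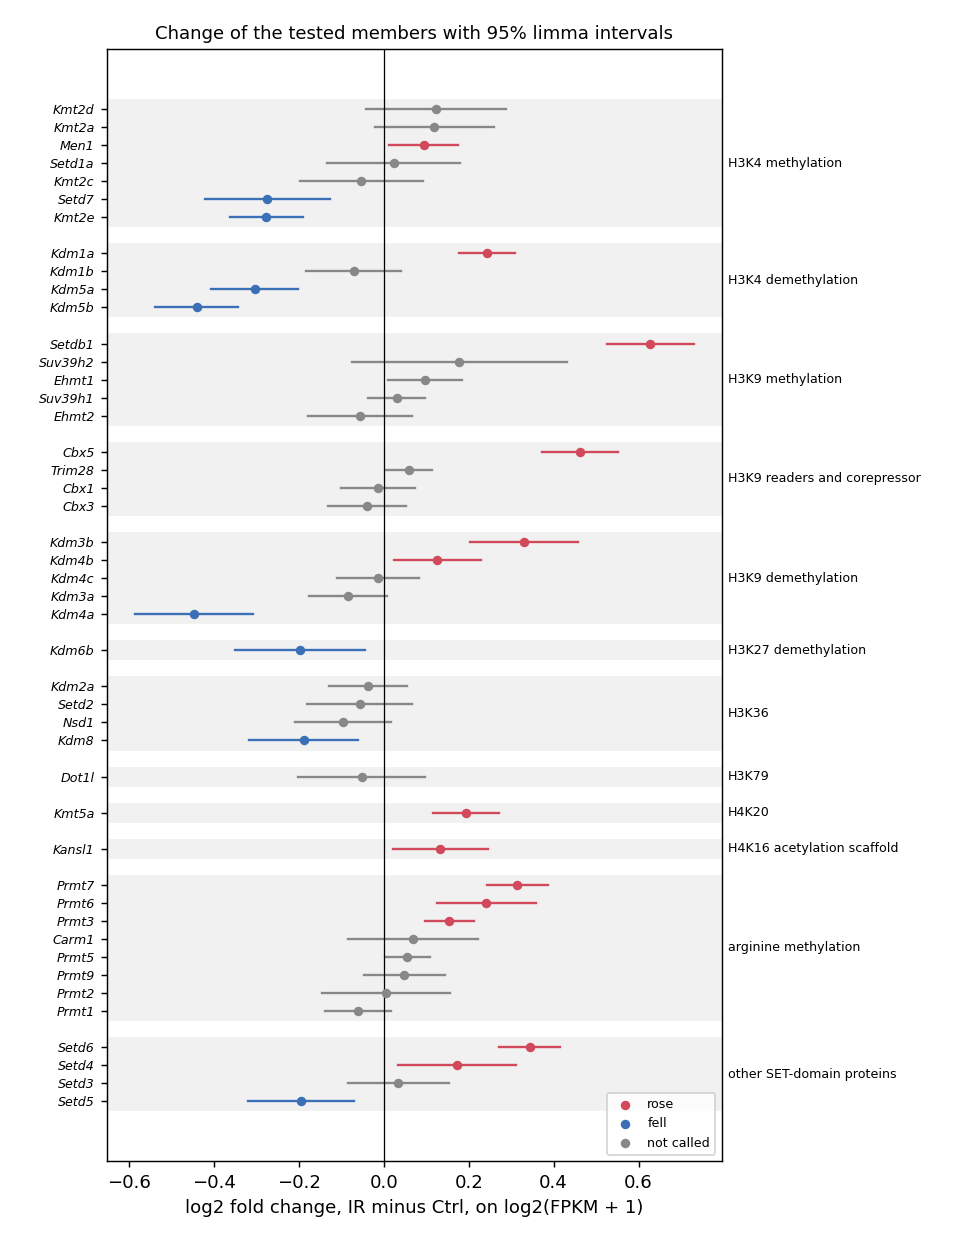
Log2 fold change (IR minus Ctrl, on log2(FPKM + 1)) of each tested gene with its 95% limma interval, grouped by mark and coloured by call. Setdb1 and Cbx5 stand at the right, Kdm4a and Kdm5b at the left, and each mark with 4 or more tested genes holds uncalled ones whose intervals cross or come near 0.

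For H3K27, Kdm6b, a JmjC enzyme that removes its trimethyl mark, fell at a low level, and Kdm6a was left out by the rule. Kdm6b was at 1.45, 1.3 and 1.5 FPKM in Ctrl and 1.01, 1.21 and 1.10 FPKM in IR. The groups did not overlap (log2 fold change -0.20, SE 0.069; limma adjusted p = 0.0321). The call was lost without Ctrl replicate 1 or 3 or IR replicate 1 or 3, with limma adjusted p up to 0.105.

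Among the H3K36 genes Kdm8 fell and the other 3 were not called. Kdm8, also known as JMJD5, was first described as an H3K36 demethylase and is also an arginine hydroxylase. It was at 7.13, 6.90 and 6.32 FPKM in Ctrl and 5.57, 5.71 and 6.20 FPKM in IR, with no overlap (log2 fold change -0.19, SE 0.057; limma adjusted p = 0.0178). Without Ctrl replicate 1 or 2 or IR replicate 1 it was not called (limma adjusted p up to 0.0673). Nsd1, a writer of H3K36 dimethylation, was at 5.04, 4.75 and 4.74 FPKM in Ctrl and 4.59, 4.49 and 4.31 FPKM in IR. Its libraries were separate, but its 95% interval was -0.21 to 0.017 (limma adjusted p = 0.135). Setd2, the writer of H3K36 trimethylation along transcribed genes, was at 4.12, 4.59 and 4.17 FPKM in Ctrl and 4.24, 3.97 and 4.06 FPKM in IR, and Kdm2a, which removes H3K36 dimethylation at CpG islands, was at 10.02 to 10.5 FPKM in Ctrl and 9.83 to 10.1 FPKM in IR. Both overlapped between groups. The median log2 fold change of the 4 genes was -0.076, and all 4 values were below 0.

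Dot1l, the H3K79 methyltransferase on which KMT2A-rearranged leukemia depends, was at 1.03, 1.19 and 0.995 FPKM in Ctrl and 1.04, 0.971 and 0.971 FPKM in IR. The groups overlapped (log2 fold change -0.052, 95% interval -0.20 to 0.098; limma adjusted p = 0.538), on about 95 to 131 fragments per library.

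On H4, Kmt5a, the cell cycle-regulated writer of H4K20 monomethylation, was at 37.8, 34.9 and 37.3 FPKM in Ctrl and 42.5, 41.8 and 41.9 FPKM in IR. Every IR library was above every Ctrl library (log2 fold change 0.19, SE 0.035; limma adjusted p = 0.00102). The proliferation list went in both directions in the same libraries. The replication genes Mcm2 to Mcm6, Tyms, Rrm2 and Ung rose, and so did Top2a, Ccna2 and the mitotic gene Bub1. The mitotic genes Ccnb1, Ccnb2, Cenpa, Cenpe and Tpx2 fell. Mki67, Cdk1, Plk1, Aurkb, Birc5 and the replication gene Pcna were not called. The part of proliferation in the Kmt5a value was not tested. Kansl1, the scaffold of the NSL complex around the H4K16 acetyltransferase KAT8, was at 5.71, 5.23 and 5.42 FPKM in Ctrl and 6.27, 6.05 and 5.91 FPKM in IR. It rose without overlap (log2 fold change 0.13, SE 0.050; limma adjusted p = 0.0454), and the call held only when Ctrl replicate 1 was the library left out (limma adjusted p up to 0.141 without any other).

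**Figure D4:**
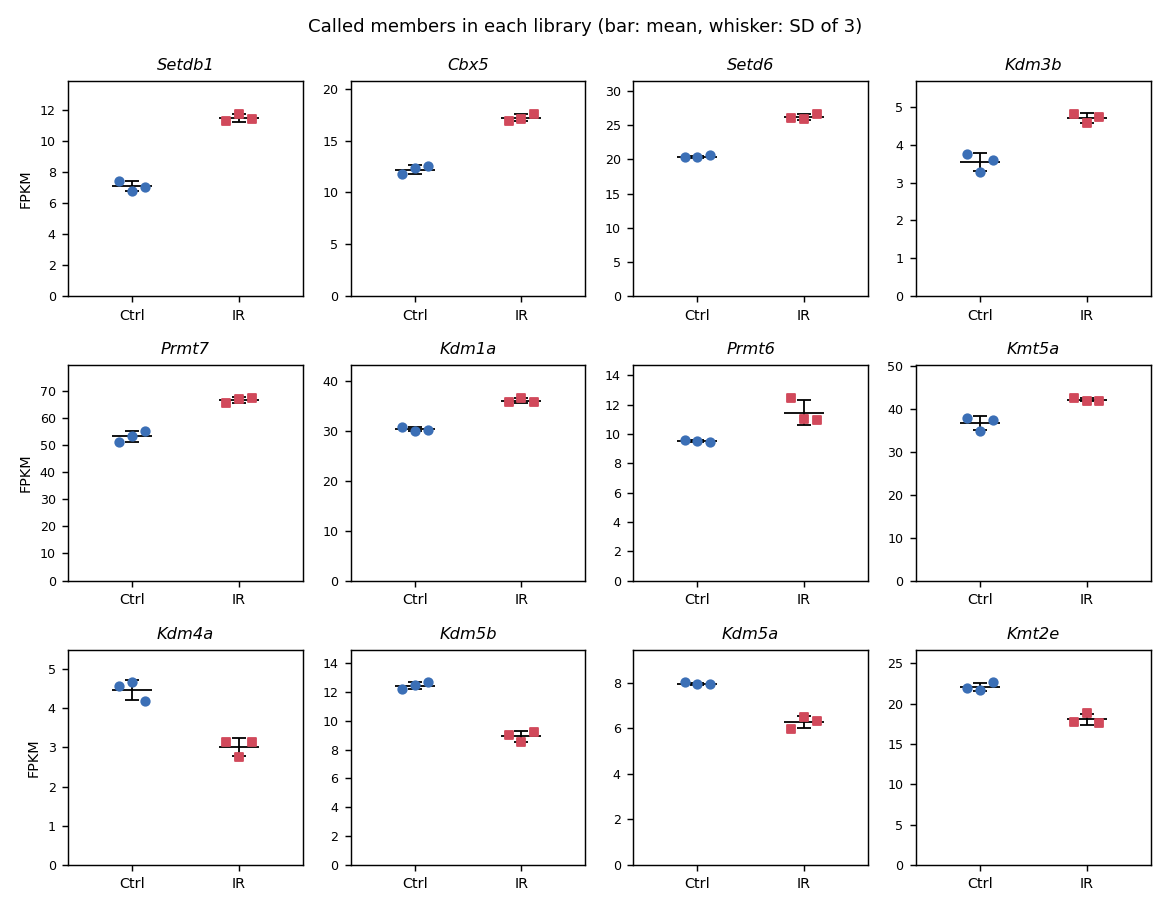
FPKM in each library of 12 called genes, Ctrl as circles and IR as squares, with the mean as a bar and the SD of 3 libraries as whiskers; each y axis starts at 0. In all 12 genes the groups are separate, and the IR libraries are higher in the upper 8 panels (Setdb1 to Kmt5a) and lower in Kdm4a, Kdm5b, Kdm5a and Kmt2e.

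The arginine methyltransferases were high, and 3 of the 8 tested rose and 5 were not called, beside 54.7% of all tested genes called and 25.8% that rose. Prmt7, which makes monomethylarginine only, was at 51.1, 53.5 and 55.2 FPKM in Ctrl and 65.3, 66.8 and 67.2 FPKM in IR. The groups were far apart relative to their spread (log2 fold change 0.31, SE 0.032; limma adjusted p = 2.79e-05). Prmt3, a cytoplasmic enzyme that methylates a ribosomal protein, was at 70.5, 68.2 and 68.8 FPKM in Ctrl and 76.2, 77.3 and 77.9 FPKM in IR. It too was separate (log2 fold change 0.15, SE 0.025; limma adjusted p = 0.000585). Prmt6, the writer of asymmetric dimethylation at H3R2, was at 9.59, 9.51 and 9.44 FPKM in Ctrl and 12.4, 11 and 10.9 FPKM in IR. IR replicate 1 was the highest of these, and no libraries overlapped (log2 fold change 0.24, SE 0.052; limma adjusted p = 0.00302).

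Prmt5, the main enzyme of symmetric dimethylation, was at 81.0, 82.8 and 82.6 FPKM in Ctrl and 85.2, 84.7 and 86.3 FPKM in IR. It was separate between groups and not called (log2 fold change 0.056, SE 0.024; limma adjusted p = 0.0715). Prmt1, which makes most asymmetric dimethylarginine, was at 64.2 and 61.5 FPKM and overlapped, with a 95% interval of -0.14 to 0.017. Prmt9, which acts on a splicing factor, averaged 12.5 and 13.0 FPKM, Carm1, a coactivator that methylates H3R17, 2.67 and 2.85 FPKM, and Prmt2 4.90 and 4.94 FPKM. All of these overlapped. Prmt8, a brain enzyme, was listed at 0 in all 6 libraries. Summed FPKM of the family was 298 ± 2.81 (SD, n = 3) in Ctrl and 323 ± 2.25 (SD, n = 3) in IR.

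The remaining SET-domain proteins have mainly non-histone or unsettled substrates. Setd6, which methylates the NF-kappaB subunit RelA, was at 20.3, 20.3 and 20.6 FPKM in Ctrl and 26.0, 25.8 and 26.6 FPKM in IR. The groups were separate by many times their spread (log2 fold change 0.34, SE 0.032; limma adjusted p = 1.47e-05). Setd5 was at 2.94, 2.89 and 3.03 FPKM in Ctrl and 2.54, 2.50 and 2.32 FPKM in IR. It was lower in every IR library (log2 fold change -0.19, SE 0.056; limma adjusted p = 0.0140), and without IR replicate 3 it was just outside the threshold (limma adjusted p = 0.0510). Setd4 was at 1.63, 1.74 and 1.83 FPKM in Ctrl and 1.95, 2.10 and 2.18 FPKM in IR, on about 44 to 57 fragments per library. It was higher in every IR library (log2 fold change 0.17, SE 0.062; limma adjusted p = 0.0379) but lost the call without Ctrl replicate 1 or 2 or IR replicate 2 or 3 (limma adjusted p up to 0.117). Setd3, the actin histidine methyltransferase, was at 15.5 and 15.9 FPKM with overlapping libraries.

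Partner subunits of these enzymes were read from the same fit. Their counts stand beside 54.7% of all tested genes called, 25.8% higher and 28.9% lower. Of 18 COMPASS, MLL and NSL subunits 7 were called higher, 5 lower and 6 neither (66.7% called), and their median log2 fold change was 0.091. Rbbp5, a core subunit shared by all COMPASS complexes, rose from 9.39 ± 0.128 to 12.2 ± 0.110 FPKM (SD, n = 3; log2 fold change 0.34, limma adjusted p = 5.05e-05). Dpy30, another core subunit, rose from 104 to 115 FPKM (log2 fold change 0.14), and Psip1, or LEDGF, which tethers menin and KMT2A to chromatin, from 34.4 to 39.1 FPKM (log2 fold change 0.18). The NSL subunit Kansl2 fell from 43.2 FPKM in Ctrl to 37.8 FPKM (log2 fold change -0.19, limma adjusted p = 0.000575). Chosen after their values were seen, the others called lower were the NSL subunits Kansl3, Mcrs1 and Phf20, and Bod1l. Their log2 fold changes were -0.20, -0.11, -0.17 and -0.14. The others called higher were Wdr5, Wdr82, Hcfc1 and Kat8 (log2 fold changes 0.13, 0.25, 0.13 and 0.21).

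Of 16 tested H3K9 silencing partners 6 rose, 4 fell and 6 were not called (62.5% called, beside 54.7% of all tested genes), with a median of 0.017. The 2 subunits of chromatin assembly factor 1 that are listed went in opposite directions: Chaf1a rose from 33.0 to 40.0 FPKM (log2 fold change 0.27; limma adjusted p = 5.43e-05) and Chaf1b fell from 89.0 FPKM in Ctrl to 76.1 FPKM (log2 fold change -0.22; limma adjusted p = 0.000132). In addition, Pphln1, which encodes the HUSH complex subunit periphilin, rose from 16.5 to 20.1 FPKM (log2 fold change 0.27). Chosen after its value was seen, Atf7ip, the nuclear partner that protects SETDB1, rose from 4.01 to 4.51 FPKM (log2 fold change 0.14; limma adjusted p = 0.0484), a far smaller change than that of Setdb1.

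Of 12 LSD1 partners 3 rose, 2 fell and 7 were not called (41.7% called, beside 54.7% of all tested genes), with a median of -0.021. Gfi1b, the zinc finger repressor that brings LSD1 to its targets in erythroid and megakaryocytic cells, was at 24.5, 21.4 and 24.4 FPKM in Ctrl and 38.9, 32.2 and 33.7 FPKM in IR. Its groups did not overlap (log2 fold change 0.55, SE 0.070; limma adjusted p = 0.000102). In the same libraries 5 of 6 tested megakaryocyte genes rose, and of 7 erythroid genes 4 rose and 3 fell. Klf1 rose from 4.73 to 10.4 FPKM, Epor from 1.70 to 4.30 FPKM, Car1 from 19.9 to 48.0 FPKM and the globin gene Hbb-bt from 30.8 to 36.4 FPKM. The globin genes Hbb-bs and Hba-a1 fell, from 13.3 and 17.8 FPKM in Ctrl to 5.94 and 12.4 FPKM in IR. The summed erythroid level, 543 to 546 FPKM in Ctrl and 551 to 555 FPKM in IR, was mostly that of Car2, which was at 455 and 435 FPKM and fell. The part of these genes in the Gfi1b value was not tested. Zmym2 rose from 5.69 to 7.54 FPKM (log2 fold change 0.35), and Hdac2, a deacetylase of the CoREST complex, rose from 128 to 143 FPKM (log2 fold change 0.15). Chosen after its value was seen, Hdac1 of the same list fell without overlap, from 185 FPKM in Ctrl to 174 FPKM (log2 fold change -0.091, limma adjusted p = 0.0052). Gfi1, at 18.1 and 17.5 FPKM, was not called.

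Of 13 tested DOT1L and elongation partners 3 rose, 1 fell and 9 were not called (30.8% called, beside 54.7% of all tested genes), with a median of 0.011. Mllt1, or ENL, an acetyl-lysine reader of the super elongation complex, rose from 8.22 to 11 FPKM (log2 fold change 0.38; limma adjusted p = 9.95e-05). The elongation factor genes Eaf1 and Aff1 rose (log2 fold changes 0.25 and 0.18), and Ell2 fell from 3.44 FPKM in Ctrl to 2.49 FPKM (log2 fold change -0.35). Of 10 arginine methylation partners none was called higher, 3 fell and 7 were not called (30% called), with a median of -0.069. Those that fell were Jmjd6, Rbm15 and Riok1, an adaptor of PRMT5 (log2 fold changes -0.12, -0.15 and -0.087). Their limma adjusted p values were 0.0205, 0.0359 and 0.0362, not far below the threshold. Wdr77, the obligate PRMT5 cofactor MEP50, was at 77.9 and 79.8 FPKM and was not called.

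**Figure D5:**
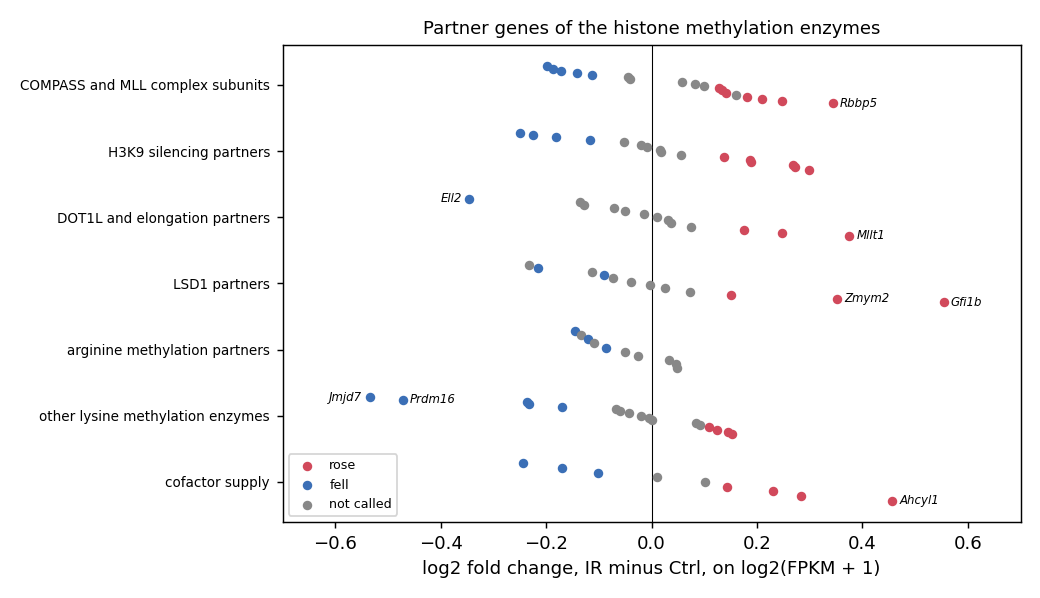
Log2 fold change (IR minus Ctrl, on log2(FPKM + 1)) of each tested gene of the 7 partner lists, coloured by call; genes at 0.3 or more in size are named. Gfi1b at 0.55 is the furthest right and Jmjd7 at -0.54 the furthest left.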

How the data were processed

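Poly(A) RNA of sorted HSCs was sequenced in 3 Ctrl and 3 IR libraries. The authors deposited one table of FPKM per gene and library, made with fastp, HISAT2 and StringTie on GRCm38 (mm10) per the submitters' processing notes; versions, annotation, strand setting and the definition of FPKM over several transcripts are not stated there. FPKM is not a count, so no count test was run. Of 21878 entries, 27 whose symbols had become dates were removed. The 10281 genes that reached 1 FPKM in 3 or more libraries entered a fit with limma 3.58.1 in R 4.3.3 (mean-variance trend, 2-sided) on log2(FPKM + 1), with Benjamini-Hochberg adjustment over all of them and a threshold of 0.05. The method was tested on simulated data.

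Members, marks and partner lists were chosen with earlier results of these data known. Some partner genes were named beyond the rule that follows, and these were chosen after their values were seen. Every called member is named; per-library values are given for the 3 members of each mark with the smallest p and for those at 5 FPKM or more whose groups do not overlap; of each partner list, up to 4 called genes with the smallest p are named, apart from 2 that are not reported here. Depth was estimated from low values of single-transcript genes; whole reads could not be recovered (23.4% to 27.2% of these values came out whole within 0.01). Promoters come from RefSeq (GRCm38.p6), where 42 of 52 symbols matched, and gene positions from GENCODE. Replicates of a group differed by more than counting noise (median chi-square over expectation 1.31 to 1.72), and all were kept. Alternatives were other pseudocounts, filters and scaling, no trend, a replicate block and each library left out.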

Additional observations from a re-analysis of the deposited data

How the results depend on the processing

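No called member changed direction in the 13 alternative settings that tested it. The sign of 4 uncalled members with values near 0 did vary: Setd1a gave log2 fold changes of -0.031 to 0.072, Cbx1 -0.049 to 0.0051, Prmt2 -0.041 to 0.077 and Setd3 -0.011 to 0.079 over the settings. Of the 21 called members, 14 were called in every setting that tested them. The other 7 (Kdm6b, Kdm8, Men1, Kdm4b, Kansl1, Setd5 and Setd4) lost the call in at least 1 setting, and 4 uncalled members (Kmt2a, Ehmt1, Trim28 and Prmt5) gained it in at least 1. Over 141 tested members and partners together, 104 of 1791 values from the settings lost a call and 20 gained one. The partner calls are not followed gene by gene here. Leaving out 1 library at a time gave 9 to 12 members that rose and 6 to 8 that fell. With a filter of 5 FPKM, which tests fewer genes, 4 members fell in place of 8. Replicate numbers did not pair the libraries: deviations of same-numbered Ctrl and IR libraries correlated at 0.0085, -0.0314 and -0.0486. With a replicate block 10 members rose and 7 fell, and 2539 genes rose and 2840 fell in the whole table; Kdm6b, Men1, Kdm4b and Kansl1 were then outside the threshold (limma adjusted p = 0.0571, 0.0534, 0.0623 and 0.0585). Medians over few genes moved more. The H3K4 methylation median was -0.091 with the 5 FPKM filter and -0.023 to 0.072 with 1 library left out. That of H3K4 demethylation was -0.12 with a pseudocount of 5. H3K9 methylation gave 0.064 without a filter and 0.064 with the 5 FPKM filter, H3K9 demethylation 0.059 without a filter, and H3K36 -0.11 with the 5 FPKM filter. The arginine median was 0.054 to 0.10 with 1 library left out, and that of the other SET-domain proteins 0.14 with a pseudocount of 0.1, 0.050 with a pseudocount of 5 and 0.19 with the 5 FPKM filter. The cause was not tested where no smaller gene set accounts for it. The lowest members rest on few fragments, about 22 to 39 a library for Setdb2 and 36 to 66 for Setd1b. Kmt2b had about 39 to 64 and Dot1l 95 to 131. Even so, Setd4 (44 to 57), Setd7 (94 to 160) and Kdm6b (105 to 144) were called at a like depth. Members that overlap an opposite-strand gene (9, of which 5 called: Setdb1, Prmt7, Kdm1a, Kdm5a and Kmt2e) depend on an unstated strand setting.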

Other observations

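Lysine methylation enzymes and related SET-domain and JmjC-family genes that carry other names went both ways as well. Not every gene of this list, Jmjd7 for one, encodes a lysine methylation enzyme. Of the 17 listed genes that could be tested, 4 were called higher, 5 lower and 8 neither, and their median log2 fold change was -0.019. That is 52.9% called, beside 54.7% of all tested genes. Prdm16, a SET-domain transcription factor needed for stem cell maintenance, was at 1.64, 1.69 and 1.6 FPKM in Ctrl and 0.806, 0.920 and 0.993 FPKM in IR. Its groups did not overlap (log2 fold change -0.47, SE 0.066; limma adjusted p = 0.000197). Its relative Mecom was at 3.37 and 3.24 FPKM and was not called. Jmjd7, a JmjC-family lysyl hydroxylase, fell from 12 ± 0.767 FPKM in Ctrl to 8.02 ± 1.02 FPKM (SD, n = 3; log2 fold change -0.54, limma adjusted p = 0.000223). Smyd3 fell from 9.75 FPKM in Ctrl to 8.14 FPKM (log2 fold change -0.24) and Smyd5 rose from 39.1 to 43.4 FPKM (log2 fold change 0.14). The H3K36 writers NSD2 and NSD3, listed under the older symbols Whsc1 and Whsc1l1, were at 3.37 and 1.91 FPKM in Ctrl and 3.17 and 2.08 FPKM in IR, and neither was called.

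The cofactor list holds genes that supply or clear the methyl donor and the 2-oxoglutarate cofactor. It also takes in Ahcyl1 and Ahcyl2, listed only as homologs of a clearing enzyme. Of its 9 tested genes 7 were called, 4 higher (Ahcyl1 and Ahcyl2 among them) and 3 lower. Beside these, 54.7% of all tested genes were called, 25.8% higher and 28.9% lower. Ahcyl1, a homolog of the S-adenosylhomocysteine hydrolase, was at 9.22, 9.39 and 9.56 FPKM in Ctrl and 13.3, 13.4 and 13.1 FPKM in IR. It was separate between groups (log2 fold change 0.46, SE 0.039; limma adjusted p = 8.08e-06). Ahcy itself rose from 33.3 to 39.2 FPKM (log2 fold change 0.23; limma adjusted p = 0.00116). The S-adenosylmethionine synthetase subunits went in opposite directions: the catalytic Mat2a rose from 242 to 267 FPKM (log2 fold change 0.14; limma adjusted p = 0.000216) and the regulatory Mat2b fell from 134 FPKM in Ctrl to 113 FPKM (log2 fold change -0.24; limma adjusted p = 0.000192).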
